A study of Arabidopsis thaliana with 18 samples.

Results

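The transcripts that changed in wild-type Arabidopsis thaliana seedlings within 3 h of antimycin A were read from 6 of the 18 arrays of the series. The members were the 3 arrays of treated and the 3 arrays of mock-treated wild type, set against each other over all 22746 probe sets of the Affymetrix ATH1 array that are not controls. On this array each transcript is read by a set of short oligonucleotides. The treated seedlings were 14 days old, of the line labelled Col-Luc and given as wild type, and received 50 µM antimycin A. The mock seedlings were of the same line and age and received deionised water for the same time. The other 12 arrays hold the same pair of treatments in the mutants rao1-1 and rao1-2 (3 arrays in each group), whose name the labels spell out as regulators of alternative oxidase 1a. All seedlings grew on Gamborg B5 medium with 3% sucrose at 22 °C with 16 h of light a day (8 h of darkness), after stratification for 48 h at 4 °C. Whole green tissue was taken, so that the values are averages over many cell types, and the comparison covers 1 dose, 1 time and 1 wild-type line.

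Antimycin A binds complex III of the mitochondrial respiratory chain and stops electron transfer from ubiquinol to cytochrome c. Plant mitochondria can bypass the block through the alternative oxidase, which takes electrons from ubiquinol directly, fed by rotenone-insensitive NAD(P)H dehydrogenases. Signals from the disturbed organelle reach the nucleus and change its transcription, a process called mitochondrial retrograde signalling, and the same compound is widely used to set it off.

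The 6 arrays were alike in overall signal. On each of them 61.9% to 62.3% of the probe sets lay above a background limit of 19.0 (log2 4.25), the lowest point of the density between the dim and the bright mode of all values. Their medians lay between 83.4 and 91.8. Arrays correlated with others of the same group at a mean r of 0.990 to 0.992, a value over probe sets, which do not count as replicates. Of the markers chosen for green tissue, only 4 had a named probe set, and these lay above the limit on all 6 arrays. All 4 were called lower, PSBY 1.66-fold, LHCB4.2 1.46-fold, LHCB4.1 1.29-fold and RCA 1.1-fold, and RCA lost its call on leaving out any of 5 of the 6 arrays. These 4 do not stand for all such genes. Of 27 light-harvesting and photosystem genes, 6 were called lower, 1 higher and 20 not, with a median of −0.05. In whole tissue, fewer cells of a type and less RNA per cell cannot be told apart. Of the 3 root markers with a named probe set, EXPA7 and EXPA18 lay under the limit on all 6 arrays. PYK10 lay above it on all 6 and was not called (0.32 ± 0.77 on the log2 scale). The probe set for 25S ribosomal RNA had a log2 intensity of 13.65 ± 0.10 on the treated arrays and 12.81 ± 0.18 on the mock arrays (SD, n = 3 each). Its part in the results was not tested. Levels below are normalized intensities per array or means ± SD over 3 arrays, and log2 changes are given ± SE. The adjusted p-values are those of limma, with the Benjamini-Hochberg method over all probe sets, and a transcript was called at an adjusted p under 0.05. Whether numbered replicates were separate cultures is not said in the labels, and the p-values therefore describe the variation among these samples, possibly a technical one.

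The response was wide, and its upper and lower sides had different shapes. Of the 22746 probe sets, 43.2% were called, 14.4% higher (3282) and 28.8% lower (6540), so falls outnumbered rises. Large changes were mostly rises: 1131 called probe sets were at least 4-fold higher and 447 at least 4-fold lower on the fitted values. At 16-fold or more the counts were 355 higher and 14 lower, and at 64-fold or more 105 higher and 0 lower. Among probe sets above the limit on all 6 arrays, where no value lies in the background, 672 were at least 4-fold higher and 214 at least 4-fold lower. The corresponding counts at 16-fold were 122 and 0, and at 64-fold 15 and 0. With every value above the limit, a fall can be no larger than the distance of the mock level from the limit. The part of this in the lower counts of falls was not tested. Among the 15075 probe sets above the limit on at least 1 of the 6 arrays, 63.9% were called, 21.4% higher and 42.6% lower, and the median log2 change was −0.27, against −0.0019 over all probe sets. The share of a gene list that was called is to be read against 43.2% (14.4% higher and 28.8% lower). That share includes probe sets under the limit on all 6 arrays, few of which were called. For a list with no such member the closer share is 63.9% (21.4% higher and 42.6% lower).

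**Figure D1:**
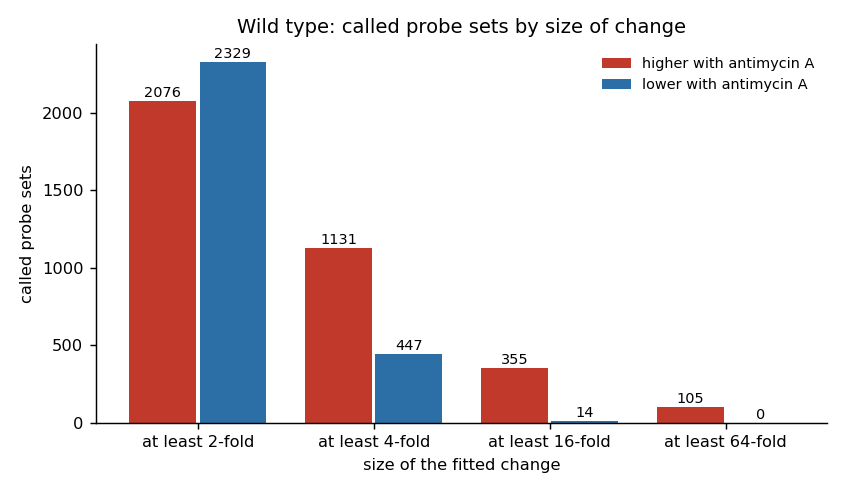
Number of called probe sets (y axis) at or above each size of fold change (x axis), higher and lower under antimycin A in wild type, with the count above each bar. Falls outnumber rises at 2-fold (2076 higher and 2329 lower) and are few at 16-fold (355 higher and 14 lower).

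Some transcripts crossed the background limit in one direction on every array. There were 264 probe sets above the limit on all 3 treated arrays and under it on all 3 mock arrays, of which 258 were called. The opposite pattern, under the limit on all treated arrays and above it on all mock arrays, was shown by 201 probe sets, of which 186 were called. The split between higher and lower calls moved with the scaling of the arrays. The deposited scaling gave 33.4% higher among the calls. Arrays centred on their own median gave 39.3%, and arrays centred on the median of the hybridisation controls gave 42.7%. Arrays centred on the median of the poly(A) controls gave 19.6%. These choices moved all changes together by up to 0.30 on the log2 scale, so changes and list medians smaller than that have no settled sign. In each of them the falls remained more frequent than the rises.

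The largest rises among transcripts measured on all 6 arrays included genes of calcium signalling, redox control and cell-surface receptors. CML38 (AT1G76650), a calmodulin-like calcium sensor, read 9116, 6621 and 7861 on the treated arrays, against 65.3, 56.3 and 82.5 on the mock arrays, 116-fold higher (6.86 ± 0.31, adjusted p = 2.37e-09). GRX480 (AT1G28480), a glutaredoxin that binds TGA transcription factors, read 1808, 2411 and 1782 after antimycin A, against 87.0, 19.8 and 40.8 after mock, 48.0-fold higher (adjusted p = 5.73e-06). B120 (AT4G21390), a lectin receptor-like kinase, read 1422, 2319 and 2423 on the treated arrays and 33.5, 31.2 and 134 on the mock arrays, 38.5-fold higher (adjusted p = 6.18e-06). The treated arrays of all 3 genes lay far above the mock arrays, with no overlap. On the log2 scale the mock values of GRX480 and B120 spread more than the treated ones. The others among the 15 largest rises carry only locus names in the tables used here, and AT2G41730, AT5G14730 and AT2G21640 among them are on the list of markers of mitochondrial dysfunction. AT2G41730 had 27401 ± 2946 in treated seedlings and 189 ± 138 in mock seedlings, 170.1-fold higher, on a probe set that can also bind related sequences. AT5G14730 was 167-fold higher, AT4G39670 104-fold and AT3G10930 99.2-fold, while AT2G21640, AT1G05575, AT5G40690, AT1G56060, AT3G09020, AT2G23270, AT3G09405 and AT5G42830 lay between 39.7-fold and 86.2-fold.

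Transcripts that appeared from below the background included a second calcium sensor and many loci without a name. CML37 (AT5G42380), a close relative of CML38, read 1042, 1431 and 925 after antimycin A, against 5.0, 5.11 and 5.25 after mock, at least 58.7-fold higher (7.76 ± 0.23 as fitted, adjusted p = 5.12e-11). All 3 mock values lay under the limit, so the fold is a lower bound. Among the 10 largest such rises, AT2G31945 was at least 66.0-fold higher and AT4G37290 at least 60.6-fold. Of these 10, GSTU25, a glutathione transferase, and UGT73B4, a glycosyltransferase, carry a gene name in the tables used here, and the other 8 carry locus names.

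Further large rises were picked out after their values were seen, for their known roles. CCR2 (AT1G80820), cinnamoyl-CoA reductase of lignin synthesis, read 1386, 1596 and 1619 after antimycin A, against 20.0, 20.1 and 16.9 after mock, 80.7-fold higher (6.33 ± 0.37, adjusted p = 2.85e-08). CCOAMT (AT1G67980), a caffeoyl-CoA O-methyltransferase, was 24.0-fold higher, with 1035 ± 307 in treated seedlings and 44.2 ± 18.2 in mock seedlings. ZCF37 (AT1G59590), a gene with no role given here, read 3241, 3733 and 4156 on treated arrays, against 18.4, 18.3 and 57.0 on mock arrays, 138-fold higher (adjusted p = 2.58e-08). One mock array lay above the others for ZCF37, whose other 2 mock values lay under the limit, and no values overlapped between treatments for any of the 3. EXO (AT4G08950), known as a brassinosteroid-responsive growth gene, was 24.7-fold higher, and the peroxidase gene Prx37 (AT4G08770) 15.3-fold. The other peroxidase gene, AT5G64120 (PRX71), was 3.82-fold higher. HHP2 was 27.5-fold higher, FMO 6.68-fold, STN1 8.15-fold and SAL2 at least 11.8-fold. STN1 lay under the limit on 2 mock arrays and HHP2 on 1, and with dim values set to the limit their folds were 4.55-fold and 19.1-fold.

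**Figure D2:**
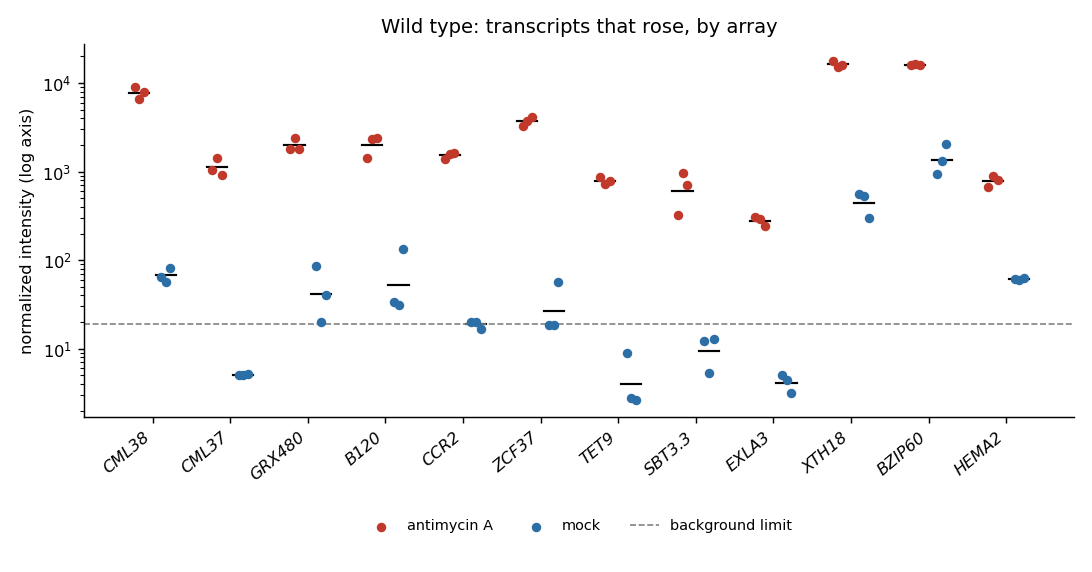
Normalized intensity on each wild-type array (log axis) for 12 transcripts that rose, with the 3 antimycin A arrays left of the 3 mock arrays for each transcript, horizontal lines at the geometric means and a dashed line at the background limit of 19.0. CML37, TET9, SBT3.3 and EXLA3 lie under the limit on all mock arrays, and no transcript shows an overlap between the treatments.

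Nearly all genes used elsewhere as markers of mitochondrial dysfunction rose. Of 16 such genes with a named probe set, 15 rose and 1 fell, with a median log2 change of 5.73 as fitted and 5.16 with dim values set to the limit. The list was chosen with results of these data known, so its direction is not independent evidence. The 15 rises were called with every one of the 6 arrays left out in turn. The gene that fell, AT4G15690, was 2.1-fold lower and lost its call on leaving out any array other than treated replicate 1 (adjusted p up to 0.14). Sizes among the members ran widely, with AT2G21640 86.2-fold higher, AT2G04070 56.6-fold (37.7-fold with the 1 dim mock value set to the limit), AT1G24095 at least 33.7-fold, AT5G43450 17.8-fold and AT1G05060 2.94-fold.

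The alternative NAD(P)H dehydrogenases did not move together. NDB2 (AT4G05020), an external enzyme that can feed the alternative oxidase, had 663, 1888 and 1594 on the treated arrays, against 65.6, 130.3 and 214 on the mock arrays, 10.3-fold higher (3.37 ± 0.59, adjusted p = 0.000363). NDB4 (AT2G20800), a related enzyme, rose at least 3.9-fold. NDC1 (AT5G08740), an internal enzyme also found in plastids, had 452, 425 and 402 after antimycin A, against 611, 628 and 629.7 after mock, 1.46-fold lower (−0.55 ± 0.08, adjusted p = 5.19e-05). The NDC1 values did not overlap between treatments. NDB1 was 1.49-fold lower (adjusted p = 0.0386), a call lost on leaving out any 1 of the 6 arrays, with adjusted p up to 0.091. Of the 5 genes of alternative respiration named here, 2 rose, 2 fell and 1, under the limit on all 6 arrays, was not called. The called ones were all NAD(P)H dehydrogenases, and no value of alternative oxidase 1a is given here.

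Transcripts encoded by the mitochondrion itself rose by moderate amounts. Of 23 probe sets matched by symbol, which stand for 16 genes, 11 were called higher and 0 lower, and over genes the counts were 9 and 0, with a median log2 change of 0.60. nad9, a subunit of complex I, had 152, 225 and 119 on the treated arrays, against 41.8, 33.8 and 59.2 on the mock arrays, 3.65-fold higher (1.87 ± 0.32, adjusted p = 0.000316). cox1, the core subunit of complex IV, was 2.28-fold higher, with 786 ± 135 in treated and 341 ± 24.7 in mock seedlings, and cox2, another subunit of it, was 1.63-fold higher. The genes ccb382 and ccb452, whose products serve cytochrome c maturation, were 1.53-fold and 1.52-fold higher. All 11 rises were called with every array left out in turn. With the arrays centred on the median of the poly(A) controls, 6 of the 16 genes were higher and 1 lower. The 25S ribosomal RNA, which is not polyadenylated as a rule, moved the same way by 0.84 ± 0.09 on the log2 scale, and its part in this result was not tested. Among transcripts encoded by the plastid few were called: of 69 genes, 2 rose and 2 fell, with a median of −0.01. Those that rose were psaC (1.52-fold) and petD (1.61-fold), and petD lost its call without treated replicate 1 or 2 or mock replicate 1 or 3 (adjusted p up to 0.231).

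A pair of nuclear genes for mitochondrial proteins, chosen after their values were seen, rose as well. CYTC-2 (AT4G10040), a cytochrome c, was 3.24-fold higher. BIGYIN (AT3G57090), also named FIS1A, whose product acts in the division of mitochondria and peroxisomes, had 2989, 3321 and 3605 after antimycin A, against 1414, 1288 and 1498 after mock, 2.36-fold higher (1.24 ± 0.12, adjusted p = 3.08e-06). The groups did not overlap.

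Calmodulin-like genes rose. Of 8 calmodulin-like genes, 6 rose and 0 fell, with a median log2 change of 1.81, and the 6 rises were called with every array left out in turn. Beside CML38 and CML37 these were CML41 (AT3G50770) (4.74-fold), CML23 (AT1G66400) (2.6-fold), CML42 (AT4G20780) (2.46-fold) and AT1G76640 (CML39; at least 1.51-fold). Glutamate receptor-like channels, a family added after the values were seen, moved both ways: of 8, 2 rose and 3 fell. Those that fell were GLR3.3 (1.86-fold), GLR3.5 (2.16-fold) and GLR3.6 (at least 1.24-fold), and GLR2.7 rose 2.6-fold. ATGLR1.2 rose at least 1.97-fold, a call lost without treated replicate 2 (adjusted p = 0.0753).

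Immune and surface-signalling genes were among the rises. BIK1 (AT2G39660), a cytoplasmic kinase that relays signals from pattern-recognition receptors, had 2715, 3328 and 3606 on the treated arrays, against 420.4, 588 and 675 on the mock arrays, 5.8-fold higher (2.54 ± 0.18, adjusted p = 1.11e-07). EFR (AT5G20480), the receptor for the bacterial elongation factor Tu, was 2.87-fold higher, and the kinase gene PTI1-4 4.15-fold. Of 9 plant U-box ubiquitin ligases, 5 rose and 0 fell (median 0.94), each rise called with every array left out in turn. PUB22, PUB23 and PUB24, known as dampeners of immune signalling, were 4.09-fold, 10.7-fold and 4.01-fold higher. SBT3.3 (AT1G32960), a secreted protease linked to immune priming, had 324, 963 and 710.0 after antimycin A, against 12.2, 5.3 and 13.0 after mock, at least 31.9-fold higher (adjusted p = 8.17e-06). Its relative SBT3.5 (AT1G32940) was 8.0-fold higher. Other subtilases fell, among them ATSBT5.2 (5.55-fold), SBT1.3 (4.6-fold), ARA12 (2.5-fold), a protease of seed mucilage release, and S1P (1.94-fold), which cleaves membrane-bound bZIP factors. Of 11 subtilases 3 rose and 5 fell. BIK1, EFR, PTI1-4 and the subtilases were chosen after their values were seen.

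Transcription factors moved in both directions, also within families. Of 7 WRKY factors, 3 rose and 2 fell. WRKY22 (AT4G01250), a factor of immune signalling, had 1454, 1599 and 1182 on the treated arrays, against 75.1, 207 and 142 on the mock arrays, 10.8-fold higher (3.43 ± 0.32, adjusted p = 1.91e-06), and WRKY20 was 1.35-fold lower. Of 22 bZIP factors, 6 rose, 2 fell and 14 were not called, with a median of 0.04. BZIP60 (AT1G42990), a transcription factor of the unfolded protein response, had 16086, 16226 and 16130.0 after antimycin A, against 928, 1316 and 2037 after mock, 11.9-fold higher (3.58 ± 0.27, adjusted p = 2.18e-07). BZIP28 (AT3G10800), which acts in the same response, was 1.81-fold higher, and BZIP17 (AT2G40950) 1.72-fold lower. AT2G40620 (bZIP18) was 2.57-fold higher, bZIP52 1.8-fold and bZIP53 1.71-fold, while bZIP19, which controls the zinc deficiency response, was 1.69-fold lower. HYH, a light-signalling relative of HY5, was 3.16-fold higher. Of 7 genes named as bHLH, 1 was called, bHLH104, a regulator of iron homeostasis, at 1.55-fold lower. MYC4, a jasmonate-responsive factor added after its value was seen, was 2.84-fold lower. MYC3 was 2.11-fold higher, a call lost without treated replicate 2 or 3 or mock replicate 2 (adjusted p up to 0.0739).

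The 5 genes for folding in the endoplasmic reticulum named here moved the other way from BZIP60 and BZIP28. All 5 fell, with a median of −1.27. This small list was added after the values were seen, so its direction is not independent evidence and does not stand for all such genes. CRT1b (AT1G09210), a calreticulin, had 1752, 2228 and 1711 on the treated arrays, against 6669.9, 6656 and 7500.2 on the mock arrays, 3.68-fold lower (−1.88 ± 0.13, adjusted p = 1.52e-07). The DnaJ-type co-chaperone ATERDJ3B was 3.17-fold lower, ATERDJ2B 2.41-fold and ATERDJ2A 1.51-fold. PDIL5-1, a protein disulfide isomerase, was 1.39-fold lower. None of these 5 calls was lost on leaving out an array.

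Some detoxification genes rose strongly, and others fell or were not called. Of 51 UDP-glycosyltransferases, which attach sugars to small molecules, 13 rose, 7 fell and 31 were not called (39.2% called, 25.5% higher), with a median of 0.04. UGT73C1 (AT2G36750) had 432, 711 and 969 after antimycin A, against 5.49, 4.92 and 10.6 after mock, at least 35.2-fold higher (adjusted p = 1.89e-05). UGT73B1 (AT4G34138) was 11.9-fold higher, UGT73D1 at least 4.87-fold, UGT87A2 5.63-fold and UGT71B6 (AT3G21780), which glucosylates abscisic acid, at least 8.58-fold. Members that fell included UGT71B1 (AT3G21750) (at least 8.24-fold), UGT72B3 (5.57-fold) and UGT78D1 (AT1G30530), a flavonol rhamnosyltransferase (3.59-fold). UGT76C1, which inactivates cytokinins, was 2.41-fold lower. Its relative UGT76C2 was 2.08-fold lower, a call lost without treated replicate 2 or 3 or mock replicate 2 (adjusted p up to 0.0684). Of 11 tau-class glutathione transferases, 2 rose (GSTU25 and GSTU22) and 2 fell, with GSTU20 2.19-fold and GSTU27 1.74-fold lower, 36.4% called and a median of −0.03. ATGSTF13, of the phi class, was at least 4.44-fold higher. AT5G52050 (DTX50), a MATE transporter known to export abscisic acid, had 263, 316 and 196 on the treated arrays, against 5.35, 4.13 and 5.28 on the mock arrays, at least 13.4-fold higher. OCT5 (AT1G79410) and OCT4 (AT3G20660), organic cation transporters added after their values were seen, were 6.06-fold and at least 5.23-fold higher.

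Of 22 cytochromes P450, 9 lay under the limit on all 6 arrays, 1 rose and 7 fell. The share that fell (31.8% of the 22) was near that of all probe sets. Among the falls were CYP71B genes, with CYP71B24 4.22-fold lower, CYP71B26 3.69-fold, CYP71B28 2.97-fold, CYP71B34 1.87-fold and CYP71B29 1.84-fold. The growth-related CYP78A9 was 2.97-fold lower, and CYP84A4 was 8.39-fold higher. Of 8 aldehyde dehydrogenases 0 rose and 3 fell (37.5% called), led by ALDH3F1 (2.97-fold). MSRB9 and AER were chosen after their values were seen. MSRB9, a methionine sulfoxide reductase, was 9.66-fold higher. AER (AT5G16970), an alkenal reductase for reactive carbonyls, had 3442, 4358 and 5389.9 after antimycin A, against 405, 525 and 811 after mock, 7.77-fold higher. Of 8 thioredoxins and glutaredoxins, 2 rose and 3 fell, and TY1, the plastid thioredoxin y1, was 1.96-fold lower. Glutathione reductase (GR) was 1.45-fold lower.

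Hormone genes moved both ways. GID1B (AT3G63010), a gibberellin receptor, had 319, 446 and 397 after antimycin A, against 14.2, 43.2 and 44.9 after mock, 12.7-fold higher (3.67 ± 0.40, adjusted p = 6.84e-06). A second receptor, GID1A (AT3G05120), had 230.1, 178 and 192 on the treated arrays and 395, 407 and 325 on the mock arrays, 1.88-fold lower (adjusted p = 0.000379). Neither gene's values overlapped between treatments. Of 6 cytokinin response regulators 2 fell and 0 rose. RR16 (AT2G40670) had 13.6, 9.52 and 12.4 after antimycin A, against 163, 124 and 116 after mock, at least 7.01-fold lower, and ARR15 (AT1G74890) was 5.47-fold lower, both type-A regulators that are induced by cytokinin and repress its signalling. ARR15 lay under the limit on 2 treated arrays, and with dim values set to the limit it was 3.22-fold lower. For auxin, GH3.3 (AT2G23170), which conjugates the hormone to amino acids, was 3.46-fold higher, and among 7 Aux/IAA repressors IAA18 was 1.41-fold higher and IAA29 at least 1.57-fold lower. The jasmonate list had 1 named gene, JMT, which lay under the limit on all 6 arrays and was not called. Other jasmonate genes were chosen after their values were seen. OPCL1 (AT1G20510), a ligase of jasmonate synthesis, was 4.16-fold higher. ORA47 (AT1G74930), a regulator of that synthesis, was at least 3.96-fold higher and JRG21 at least 3.15-fold. XERICO, which promotes abscisic acid accumulation, was 3.38-fold lower.

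Cell wall genes moved in both directions, also within families. Of 5 expansin-like genes, added after the values were seen, 3 rose and 1 fell, with a median of 2.43. EXLA3 (AT3G45960) had 310.5, 289.6 and 245 on the treated arrays, against 5.03, 4.39 and 3.13 on the mock arrays, at least 14.8-fold higher (6.09 ± 0.42 as fitted, adjusted p = 1.19e-07). EXLA2 was 7.99-fold higher and EXLA1 5.39-fold, while EXLB1 was 5.9-fold lower. Of 14 expansins proper, which loosen walls during growth, 8 lay under the limit on all 6 arrays, 1 rose and 6 fell, 1 of them (EXPA16) with all values under the limit. Their median of −0.18 was 0.00 with dim values set to the limit. EXPA9 (AT5G02260) had 12.6, 6.58 and 11.8 after antimycin A, against 89.2, 67.9 and 76.2 after mock, at least 4.07-fold lower (adjusted p = 1.96e-05). EXPA15 was 4.39-fold lower and EXPB3 2.24-fold. EXPA20 was the member that rose, 6.77-fold as fitted and 2.18-fold with the 2 dim mock values set to the limit.

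Enzymes acting on wall polymers also moved both ways. XTH18 (AT4G30280), a xyloglucan endotransglucosylase, had 17733, 15171 and 16032 on the treated arrays, against 558, 529 and 299 on the mock arrays, 36.6-fold higher (5.19 ± 0.37, adjusted p = 1.61e-07). Its chromosomal neighbour XTH19 (AT4G30290) was 10.4-fold higher, on a probe set for a closely related copy, and the transcripts of such copies may bind each other's probes. XTH32 was 2.83-fold lower. XTH20 was 2.33-fold higher, a call lost without treated replicate 1 or 2 (adjusted p up to 0.0857). CSLC12 (AT4G07960), of the family that makes the xyloglucan backbone, was at least 5.64-fold higher and CSLC04 1.72-fold, whereas CSLC5 was 2.58-fold lower and ATCSLC08 4.88-fold (2.99-fold with the 1 dim treated value set to the limit). Of 15 GH9 endoglucanases, added after the values were seen, 11 lay under the limit on all 6 arrays, 4 fell and 0 rose, and 2 of the falls were called with every array left out in turn. Of 23 trichome birefringence-like genes, whose products acetylate wall polymers, 5 rose and 5 fell, from TBL37 (5.42-fold higher) and TBL38 (4.51-fold higher) to TBL25 (4.48-fold lower). HCT, which acts in lignin synthesis before CCR2, was 2.13-fold lower, with 1021 ± 128 in treated and 2184 ± 364 in mock seedlings.

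Some genes for vesicles and protein turnover rose. The families described here were added after the values were seen, except autophagy. TET9 (AT4G30430), a tetraspanin of the plasma membrane, had 879, 721 and 773 after antimycin A, against 8.95, 2.82 and 2.64 after mock, at least 41.6-fold higher (7.60 ± 0.51 as fitted, adjusted p = 8.51e-08). TET8 (AT2G23810), whose product marks plant exosomes, was 7.07-fold higher, with 8767 ± 1114 in treated and 1261 ± 314 in mock seedlings. The family as a whole did not follow them, with 3 of 15 tetraspanins higher and 2 lower. Of 12 ESCRT subunits, which sort membrane proteins for degradation, 5 rose and 2 fell. Those that rose were VPS60.1 (5.3-fold), VPS2.1 (2.58-fold), VPS46.2 (2.16-fold), VPS20.1 (1.81-fold) and SNF7.1 (1.5-fold). Of 11 autophagy genes 3 rose and 0 fell: ATG8E (AT2G45170), which coats the autophagosome membrane, was 3.83-fold higher, ATG8H 1.94-fold and AT5G66930 (ATG101) 1.94-fold. RALF-like signalling peptides were mixed, with RALFL33 4.93-fold and RALFL22 4.29-fold higher and RALFL34 2.53-fold lower.

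Of enzymes of nitrogen and carbon recycling, those named here were chosen after their values were seen. AAH (AT4G20070), allantoate amidohydrolase of purine breakdown, had 506, 542 and 425 on the treated arrays, against 101, 54.3 and 67.0 on the mock arrays, 6.81-fold higher (2.77 ± 0.31, adjusted p = 1.05e-05). ASPGB1 (AT3G16150), an asparaginase, was 6.24-fold higher, and PPDK (AT4G15530), pyruvate orthophosphate dikinase, 4.27-fold. APS3, an ATP sulfurylase of sulfate assimilation, was 3.99-fold higher. Of 22 beta-glucosidases 6 rose and 4 fell (45.5% called), with BGLU28 (AT2G44460), which can break down glucosinolates, at least 7.88-fold higher and BGLU46, known from monolignol glucosides, 4.24-fold higher.

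Most named genes of chlorophyll synthesis fell, and 1 rose strongly. Of 10 genes of the pathway, 1 rose and 6 fell, with a median of −0.41. The other 3 were not called, 2 of them under the limit on all 6 arrays. The 6 falls were called with every array left out in turn. PORB (AT4G27440), the light-dependent protochlorophyllide oxidoreductase, had 4244, 2267 and 3663 on the treated arrays, against 11400.1, 11881 and 8639.9 on the mock arrays, 3.21-fold lower (−1.68 ± 0.22, adjusted p = 4.08e-05). CHLI2, a subunit of magnesium chelatase, was 3.39-fold lower, HEME2, a uroporphyrinogen decarboxylase, 2.86-fold, and CHLM, a methyltransferase of the magnesium branch, 1.65-fold. The gene that rose was HEMA2 (AT1G09940), a glutamyl-tRNA reductase at the entry of the pathway, with 663, 896 and 796 after antimycin A, against 61.3, 60.1 and 63.6 after mock, 12.6-fold higher (3.66 ± 0.17, adjusted p = 2.7e-09). The treated values of HEMA2 lay far above the mock values, and its change was larger than any fall in the list.

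Of 27 light-harvesting and photosystem genes, 1 rose and 6 fell (25.9% called), with a median of −0.05, where the median was −0.27 over the probe sets above the limit on at least 1 array. The list of CRR and OTP genes holds pentatricopeptide proteins, which edit or process organelle RNA, and through their CRR names the NDH subunits NdhL and NdhS. Of its 16 members, 0 rose and 11 fell (68.8%), 1 of them with all values under the limit, with a median of −1.23, and 8 of the falls were called with every array left out in turn. CRR21 (AT5G55740), an editing factor of plastid RNA, had 123, 21.2 and 102 on the treated arrays, against 529, 446 and 504 on the mock arrays, 7.65-fold lower (−2.94 ± 0.51, adjusted p = 0.000353). OTP81 (AT2G29760) had 22.7, 13.1 and 24.4 after antimycin A, against 124, 125 and 115 after mock, 6.27-fold lower (adjusted p = 8.33e-07). The treated values of both genes lay below the mock values without overlap. AT5G55580 (mTERF9), a plastid transcription termination factor, was at least 4.18-fold lower, CRR42 5.07-fold and CRR41 2.78-fold.

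Further nuclear genes of the plastid, chosen after their values were seen, fell too. The 3 chaperonin genes all fell, with a median of −1.55, led by Cpn60beta2 (AT3G13470) with 1440.4, 1438 and 1359.9 after antimycin A, against 4540.5, 6118 and 6636 after mock, 4.03-fold lower. Of 13 genes of the chloroplast NDH complex, the nuclear NdhL (2.97-fold), NdhN (2.51-fold) and NdhS (1.3-fold) fell, and 0 of the 10 that the plastid encodes was called. PRK (AT1G32060), phosphoribulokinase of the Calvin cycle, had 4876, 2269 and 3972 on the treated arrays, against 12903, 12234 and 8554 on the mock arrays, 3.13-fold lower. THIC (AT2G29630), of thiamine synthesis, was 3.51-fold lower, PAM68, a photosystem II assembly factor, 4.01-fold, ATPC1, a subunit of the plastid ATP synthase, 2.35-fold, LYC, lycopene cyclase, 2.3-fold, and APL3, of starch synthesis, 3.08-fold. APL4, a related subunit, was at least 1.28-fold lower, a call lost without treated replicate 1 or 2 or mock replicate 3 (adjusted p up to 0.0973).

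**Figure D3:**
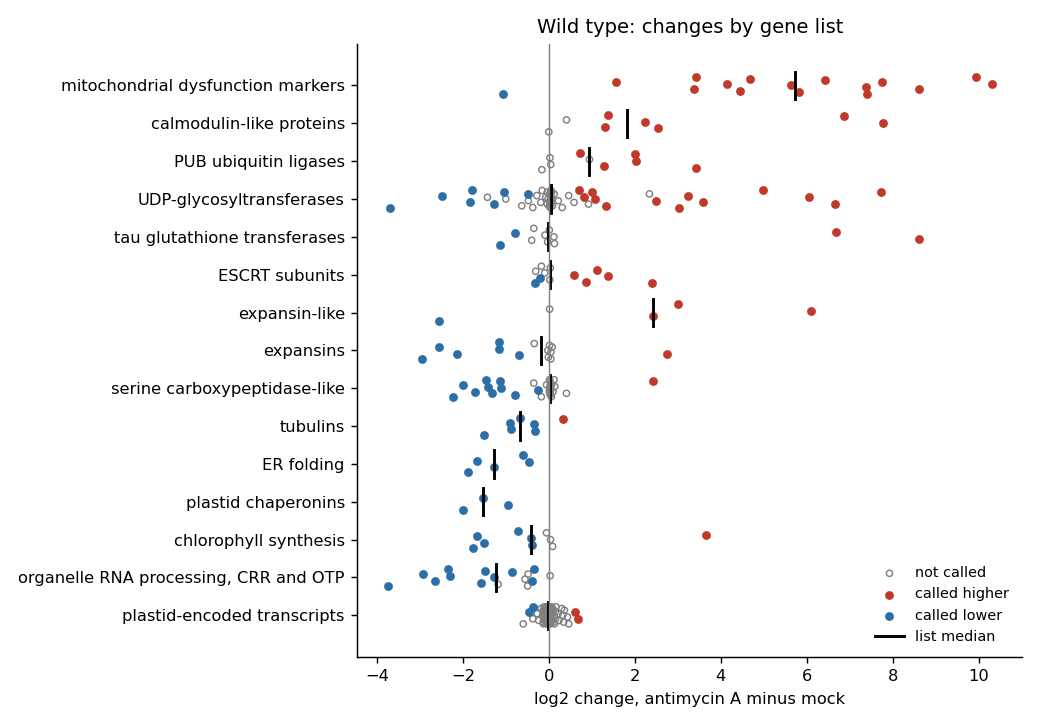
Log2 change (antimycin A minus mock, x axis) of each member of 15 gene lists in wild type. Members called higher or lower are in colour and members not called in open grey, with a vertical bar at each list's median. Members under the background limit on all 6 arrays are included in the points and the medians. Lists of calmodulin-like proteins and dysfunction markers lie to the right of 0, and tubulins, chlorophyll synthesis, CRR and OTP genes and plastid chaperonins mostly to the left.

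Most tubulin genes fell. Of 7 tubulin genes, 6 fell and 1 rose, with a median of −0.66, and the 6 falls were called with every array left out in turn. TUB5 (AT1G20010) had 1323, 559 and 914 on the treated arrays, against 2756, 2712 and 2096 on the mock arrays, 2.85-fold lower (−1.51 ± 0.27, adjusted p = 0.000455). TUB1 was 1.86-fold and TUA6 1.84-fold lower. The member that rose, TUA1 (1.26-fold), lost its call without treated replicate 2 or 3 or mock replicate 1 or 3 (adjusted p up to 0.214). Of 4 stomatal lineage genes, added after their values were seen, 3 fell and 1 was not called, and 2 of the falls were called with every array left out in turn. FMA (AT3G24140), or FAMA, which drives guard cell formation, had 68.8, 40.3 and 61.2 after antimycin A, against 249, 227 and 171 after mock, 3.85-fold lower (−1.94 ± 0.20, adjusted p = 3.99e-06). SPCH, which starts the lineage, was at least 1.63-fold lower. STOMAGEN was 2.17-fold lower, a call lost without treated replicate 2 or 3 or mock replicate 1 or 2 (adjusted p up to 0.113). Of 15 IQ-domain proteins, microtubule-linked calmodulin binders, 3 rose and 7 fell (46.7%), with iqd33 3.77-fold, IQD19 3.38-fold and IQD24 2.5-fold lower. The leaf-shape factor NGA1 (AT2G46870) was at least 4.04-fold lower and TCP15, a regulator of cell proliferation, 2.23-fold.

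The deepest falls were smaller than the largest rises, and of the 15 largest falls among genes measured on all 6 arrays GH9C2 and CRR21 carry a gene name. GH9C2 (AT1G64390), an endoglucanase, had the largest of them, with 33.7, 58.4 and 51.9 on the treated arrays, against 514, 582 and 733 on the mock arrays, 12.9-fold lower (−3.69 ± 0.50, adjusted p = 5.01e-05). SWEET1 (AT1G21460), a glucose transporter, had 9.06, 11.4 and 8.57 after antimycin A, against 136, 112 and 206 after mock. All 3 treated values of SWEET1 lay under the limit, while the 3 mock values lay above it. Of 16 SWEET sugar transporters, 9 lay under the limit on all 6 arrays, 5 fell and 1 rose. Of the falls, 1 had all values under the limit, and 37.5% called of the 16 is no more than over all probe sets. SWEET4 was 2.47-fold lower, SWEET13 at least 2.28-fold and SWEET11, which loads sucrose into the phloem, 1.8-fold. SWEET16, a vacuolar transporter, was 3.88-fold higher, a call lost without treated replicate 2 or mock replicate 3 (adjusted p up to 0.0647). AT4G13840 (CER26), of wax elongation, was 5.55-fold lower, with 224 ± 50.1 in treated and 1228 ± 127 in mock seedlings. The sucrose phosphate synthase gene ATSPS4F was 3.05-fold lower. Of 29 serine carboxypeptidase-like genes, added after the values were seen, 10 fell and 1 rose (37.9% called), with scpl46 3.99-fold and SCPL27 3.3-fold lower and scpl31 5.34-fold higher. The other 13 of the 15 largest falls carry locus names, from AT3G62820 (10.1-fold) to AT1G54820 (7.52-fold), and of these AT3G09580 (7.95-fold) lost its call without treated replicate 2 or mock replicate 1 (adjusted p up to 0.0762).

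**Figure D4:**
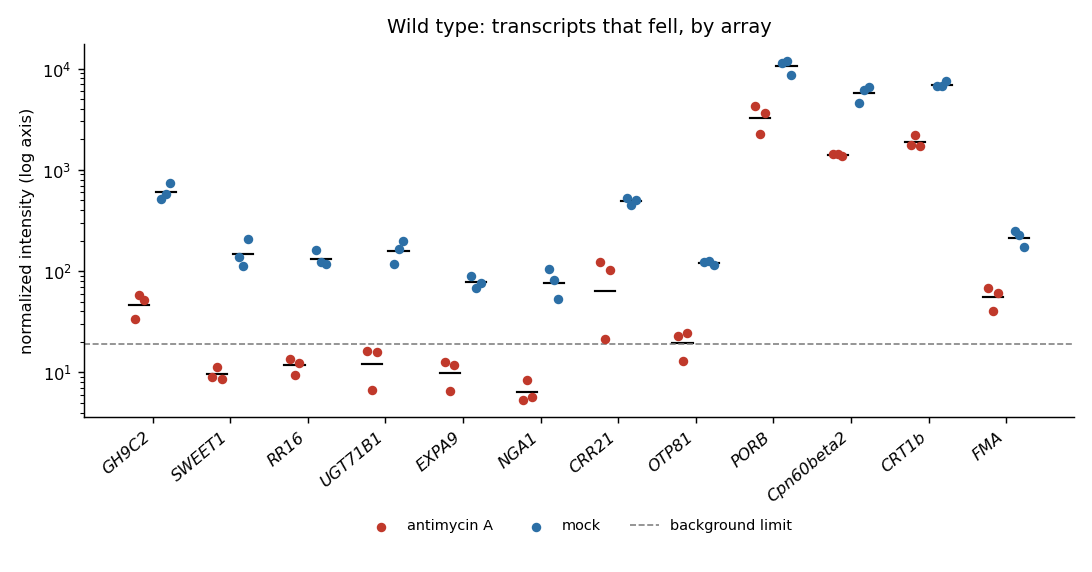
Normalized intensity on each wild-type array (log axis) for 12 transcripts that fell, with the 3 antimycin A arrays left of the 3 mock arrays for each transcript, horizontal lines at the geometric means and a dashed line at the background limit of 19.0. SWEET1, RR16 and UGT71B1 lie under the limit on all treated arrays, and the treated values lie below the mock values for each of the 12.

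In some lists few genes or none were called. Of 5 named flavonoid genes 0 rose and 0 fell, 2 of them under the limit on all 6 arrays. CHI, chalcone isomerase, had 36.3, 639.8 and 96.8 on the treated arrays, against 12.1, 12.9 and 272 on the mock arrays, wide apart within each treatment, and was not called (adjusted p = 0.332). Of 16 ribosomal protein genes, AT1G77750 was called, at 1.52-fold lower, and the median was −0.07. The clock and salicylate lists each had 1 named gene, GI, 1.89-fold lower, and SAG101, an immune regulator, 1.81-fold higher.

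Large rises sat next to each other on the chromosomes in places. Among 5909 pairs of neighbouring genes that both had a named probe set, 38 pairs had both members called and at least 4-fold higher. Of the 431 genes at least 4-fold higher that had a measured neighbour, 74 had such a neighbour (17.2%). Over all 8935 genes with a measured neighbour, the share with one at least 4-fold higher was 6.40%. The pairs include tandem copies, XTH18 with XTH19, UGT73B5 with UGT73B4, EXLA3 with EXLA1, and AT2G32020 with AT2G32030, whose probe sets may bind each other's transcripts. Other pairs join unlike names, such as BZIP60 with AT1G43000 and OPCL1 with AT1G20520.

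Few transcripts were called for a difference between the wild-type response and the mean response of both mutants. The lack of a call does not show that the responses were equal, and 2677 probe sets had an unadjusted limma p under 0.05. The interaction term called 0.396% of the probe sets, 90 in all, of which 40 had a negative difference (0.176%), a smaller rise or a larger fall in the mutants, and 50 a positive one (0.22%), a larger rise or a smaller fall. The count rested on the scaling and the pairing: it was 27 with the replicate number as a block and 7253 with arrays centred on the median of the hybridisation controls. Without treated replicate 1 it was 171, and without mock replicate 3 it was 177. AT5G57510, a locus without a name here, reached 29.7 ± 23.9 in rao1-1 and 41.4 ± 12.1 in rao1-2 after antimycin A, against 267 ± 61.8 in wild type (SD, n = 3 each). The mock levels of AT5G57510 were 10.7 in rao1-1, 10.2 in rao1-2 and 9.93 in wild type, and the difference in response was −3.14 ± 0.48 (adjusted p = 0.0108). TET9 differed through its mock level: it had 41.2 ± 24.6 in rao1-1 and 44.3 ± 9.23 in rao1-2, against 4.80 ± 3.59 in wild type, with treated levels of 893 ± 218, 658 ± 50.4 and 791 ± 80.9. Its difference of −3.31 ± 0.63 had an adjusted p of 0.04 and was lost on leaving out any wild-type array other than mock replicate 1 (adjusted p up to 0.113) and with log2(intensity + 16) (−1.51, adjusted p = 0.102). For AT3G10930 the treated means were 2796 ± 701 in rao1-1 and 2863 ± 838 in rao1-2, against 2174 ± 367 in wild type. Its mock means were 105 ± 15.1 and 118 ± 14.7 in the mutants and 21.8 ± 2.08 in wild type, and the difference was −2.0 ± 0.27 (adjusted p = 0.00441).

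As fitted, some falls of the wild type were also larger than the mean fall of both mutants. WSD1, a wax ester synthase, had 57.5 in rao1-1 and 42.3 ± 14.0 in rao1-2 after antimycin A, against 5.04 ± 1.14 in wild type, and the mock means were 184 ± 27.3, 410 ± 124 and 126 ± 18.5. The difference for WSD1 was 2.16 ± 0.33 (adjusted p = 0.0104), and with log2(intensity + 16) it was 0.59 and not called (adjusted p = 0.38). The treated level of WSD1 in wild type lay under the limit, so its fall there has only a lower bound. AT5G53710 had mock means of 5.35 in rao1-1 and 6.99 ± 2.26 in rao1-2, against 52.1 ± 11.4 in wild type. After antimycin A it was at 5.25, 5.09 and 4.72, so that every mean but that of wild-type mock lay under the limit. The difference was 3.23 ± 0.23 as fitted (adjusted p = 1.09e-05) and 1.64 with log2(intensity + 16).

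**Figure D5:**
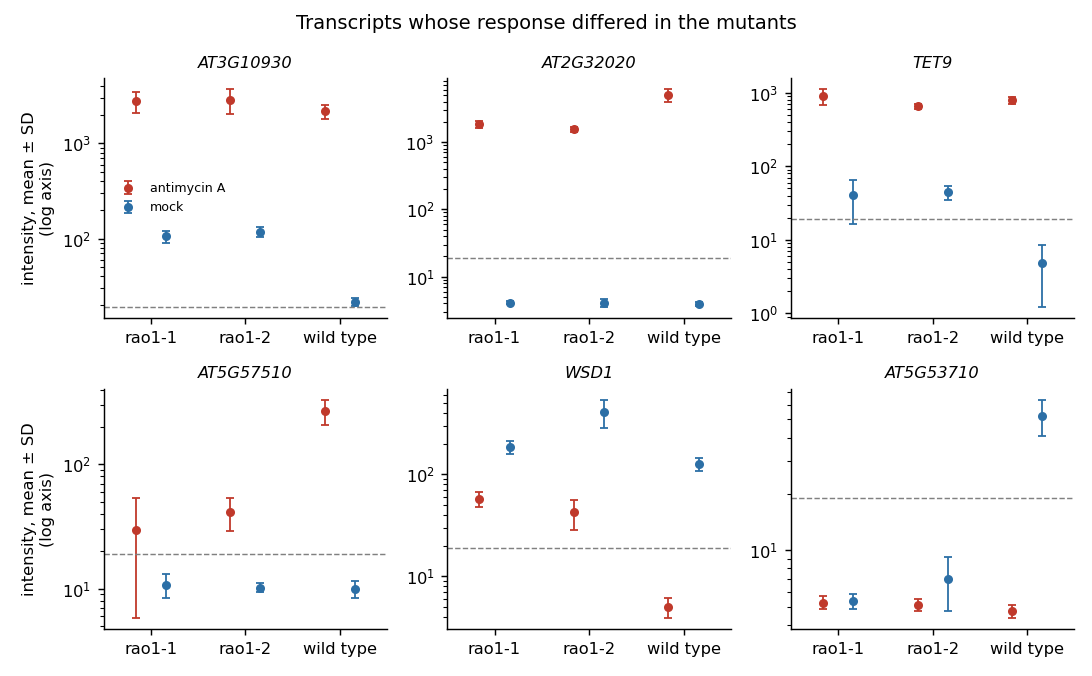
Mean ± SD of the normalized intensity (3 arrays a group, log axis) of 6 transcripts with a different response to antimycin A in the mutants and in wild type, with antimycin A left of mock and rao1-1 and rao1-2 left of wild type, and a dashed line at the background limit of 19.0 where it lies within the axis. AT2G32020 and AT5G57510 differ in the treated level, AT3G10930, TET9 and AT5G53710 in the mock level, and WSD1 in both.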

How the data were processed

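The 18 samples fall into 6 groups of 3 arrays, taken from the sample labels. The deposited values are normalized intensities on a linear scale. Per the submitters' processing notes RMA and GCRMA were used, with no version, and the sources used here do not say which made the deposited table. Either evens out arrays and so takes away a shift shared by most transcripts. Intensities were turned to log2 as they stood, without pseudocount or renormalization.

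Of 22810 probe sets, 64 controls were left out, and 22746 were tested. The platform annotation gave 1 gene to 13513 of the probe sets, several to 503 and none to 8730. Of the 13513, 13436 were found in RefSeq's table of genes (assembly TAIR10.1), which served for names and for which genes neighbour each other, and 77 kept their given names. In all 13355 genes were named, and 147 with several probe sets are represented by the brightest over all arrays.

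The model was fitted to all probe sets in limma 3.58.1, R 4.3.3 (lmFit and eBayes), with 1 mean per group over all 18 arrays and 12 residual degrees of freedom. P-values were two-sided and adjusted over the 22746 probe sets (Benjamini-Hochberg), with calls at 0.05. The difference in response is an interaction term, the mean response of both mutants minus that of wild type. The background limit was set after the values were seen. Where a group lay under it on all 3 arrays, a fold is "at least", with dim values set to the limit, and none is given where both groups lay under it. The number of arrays limits the precision. The fit was tested on simulated data.

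The members, lists and tests were chosen with earlier results of these data known. Named genes were those called, naming 1 gene and without overlap between treatments: the 15 largest rises and the 15 largest falls above the limit on all 6 wild-type arrays, and the 10 largest bounds in each direction. Up to 4 called members of each list, and the 5 largest differences in response each way, were added. Other genes were named as list members or are said to have been chosen after their values were seen. Lists with no named member on the array gave no result. Alternatives were other scalings, a pseudocount of 16, a filter on dim probe sets, an intensity trend, the replicate number as a block, the 6 wild-type arrays alone and leaving out each of them. Same-numbered treated and mock arrays of wild type deviated together with r of 0.27, −0.10 and 0.16. The highest r with an unlike number was 0.13, 0.20 and −0.04. In rao1-1 the same-numbered r was 0.04, 0.19 and −0.05, against at most 0.13, −0.10 and 0.05. In rao1-2 it was 0.14, 0.15 and 0.13, against at most −0.10, −0.03 and −0.05. Whether the numbers pair the arrays is thus not settled, and the main fit did not pair them. No sequence is shown, since no sequence table was used here.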

Additional observations from a re-analysis of the deposited data

Results flagged for a closer look

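For 12 named genes the mean response of both mutants differed from that of wild type by the interaction term. Neither mutant was tested alone, so a rise or fall "in the mutants" here is that of their mean. As fitted, it was negative, a smaller rise in the mutants, for AT3G10930 (−2.0), AT2G32020 (−1.62), AT5G09570 (−3.92), TET9 (−3.31), AT5G57510 (−3.14), AT2G41800 (−2.94) and AT3G17110 (−2.87) on the log2 scale. For AT2G32020 the treated means were 1845 in rao1-1 and 1558 in rao1-2, against 5022 in wild type. For AT2G41800 the treated means were 3.74 in rao1-1 and 3.56 in rao1-2, against 28.6 ± 7.75 in wild type. For AT3G17110 they were 10.8 in rao1-1 and 13.9 in rao1-2, against 117 ± 36.4 in wild type, and for AT5G09570 7.04 and 9.50, against 119 in wild type.

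As fitted, the interaction term was positive, a smaller fall in the mutants, for WSD1 (2.16), AT5G53710 (3.23), AT1G20070 (3.00), AT1G56710 (2.38) and AT5G52850 (1.49). The mock means of AT1G56710 were 5.50 in rao1-1 and 7.60 in rao1-2, against 35.0 ± 4.93 in wild type, while its treated means were 4.74 and 4.43, against 4.78. TET9, AT1G20070 and AT5G52850 were not called with the replicate number as a block (adjusted p = 0.0688, 0.132 and 0.0953), and each lost its call on leaving out some wild-type arrays. For AT1G20070 these were treated replicates 2 and 3 and mock replicates 1 and 2 (adjusted p = 0.0781 to 0.113). For AT5G52850 they were treated replicates 1 and 2 and mock replicates 2 and 3 (adjusted p = 0.0613 to 0.119). AT5G52850 was also not called with quantile normalization (adjusted p = 0.0813), arrays centred on the hybridisation controls (0.0565) or log2(intensity + 16) (0.0574).

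Several of these differences rest on levels under the background limit and were smaller with log2(intensity + 16). With it the differences were −2.41 for AT5G09570, −1.51 for TET9, −2.54 for AT5G57510, −1.17 for AT2G41800, −2.09 for AT3G17110 and −1.40 for AT3G10930. They were 0.59 for WSD1, 1.64 for AT5G53710, 2.49 for AT1G20070, 1.16 for AT1G56710 and 0.73 for AT5G52850.

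Outside the tested probe sets, the control for 25S ribosomal RNA was 0.84 higher on the log2 scale in treated than in mock wild type. It was not the only control that moved. Those for GAPDH were 0.47 to 1.17 higher, those for ubiquitin 0.11 to 0.23 higher and those for actin 0.48 to 0.75 lower. The spiked poly(A) controls were up to 0.65 higher. The cause was not tested.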

How the results depend on the processing

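The count of wild-type calls, 9822, stayed within 1.5 times of itself under each alternative but a minimum of 2-fold, which left 4405, with 2076 higher and 2329 lower. Leaving out each wild-type array gave 8727 to 9289 calls, with 2906 to 3231 higher and 5771 to 6102 lower. The replicate number as a block, a number the samples only share, gave 9646, and the 6 wild-type arrays alone gave 8621. The difference in response, 90 calls, was less stable: 27 with the replicate block, 56 with arrays centred on the median of the poly(A) controls and 7253 on that of the hybridisation controls. The last 2 settings were chosen after seeing the data. Leaving out each wild-type array gave 61 to 177 such calls. The cause was not tested. Of 4706 values of named genes under the alternatives, 4543 kept direction and call, 149 lost the call, 14 gained it and 0 turned round. Signal near the background limits 7671 probe sets that lay under the limit on all 6 wild-type arrays.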

Other observations

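Further genes, chosen after their values were seen, belong to groups not described above. SIZ1 (AT5G60410), a SUMO ligase, had 671, 995 and 981 on the treated arrays, against 407, 414 and 387 on the mock arrays, 2.16-fold higher (1.11 ± 0.12, adjusted p = 4.91e-06 by limma). Its 3 treated values lay above its 3 mock values. The cold-responsive genes COR27 (AT5G42900) and LTI30 (AT3G50970) were 2.8-fold and 3.24-fold higher, and ACT11 (AT3G12110), an actin, 3.73-fold. Among the falls, FaTA (AT3G25110), an acyl-ACP thioesterase that ends plastid fatty acid synthesis, was at least 2.78-fold lower, CaS (AT5G23060), a calcium-sensing protein of the thylakoid, 2.23-fold, and SNZ (AT2G39250), a repressor of flowering, at least 2.54-fold. WAG2 (AT3G14370), a kinase that acts on auxin transport, was at least 1.42-fold lower.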
